A study of Homo sapiens with 8 samples.

Results

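The SLC25 family holds the mitochondrial carriers, the proteins that move metabolites, nucleotides and cofactors across the inner mitochondrial membrane. Its members were taken by name, as genes that the array design calls SLC25A and a number. Described here are 42 such genes with 50 probes on an array of 34809 gene names, and 37 of them were tested among 20464 genes. The level of each was compared between 4 vectors in HuCCT1, an established human cholangiocarcinoma cell line. The control group was 4 arrays, 2 of cells transfected with the vector shControl and 2 with the vector shNontarget. The BEX2-knockdown group was 4 arrays, 2 for the vector shBEX2-1 and 2 for shBEX2-2, which express short hairpin RNAs against BEX2 from a retroviral vector. The hairpin targets, as the study's methods write them, lie on opposite strands of the same site, and the control that the methods describe is a hairpin against luciferase. The sources used here do not say which control vector that is, whether a subline is 1 clone, or whether separate cultures stand behind the arrays of 1 vector. P-values measure the spread between these arrays, which may be technical.

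Most carriers exchange one compound for another. The ADP/ATP carriers export the ATP made by oxidative phosphorylation, and the phosphate carrier brings in the phosphate for it. Other members carry citrate, malate and oxoglutarate, amino acids, carnitine esters, iron or glutathione, and some bring in cofactors that are made in the cytosol, such as S-adenosylmethionine. Nearly all have no cleavable import signal and reach the inner membrane through a set of small chaperones between the membranes. The question addressed was which carriers differed in RNA level when BEX2 was knocked down, since the study also examined mitochondrial activity in relation to BEX2.

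Levels are given as the log2 of the processed intensity minus the log2 of the 75th percentile of that array, so that 0 is that percentile. A level belongs to 1 probe and is compared here only with levels of the same probe. A gene was tested if 4 or more arrays had its probe well above background, and it was called if the limma adjusted p was under 0.05. Well above background were 59.8% to 64.6% of an array's 58717 spots, controls left out, and none was saturated. The 75th percentile was between 667 and 838 on control arrays and between 441 and 631 on BEX2-knockdown arrays, and this scaling took it out. All arrays lay on 1 slide, the control arrays in row 1 and the BEX2-knockdown arrays in row 2, so that slide row and BEX2 knockdown cannot be told apart. BEX2 itself had intensities of 71.0 and 55.7 with shControl, 115 and 48.8 with shNontarget, 11.9 and 11.1 with shBEX2-1, and 20.4 and 26.0 with shBEX2-2. With shBEX2-1 its mean level was 3.83-fold below that of the control group. BEX2 was not well above background on either array there, so that this ratio is uncertain. With shBEX2-2 its limma adjusted p was 0.0813, and for both sublines together the log2 fold change was -1.63 (SE 0.32, limma adjusted p = 0.0116). All 8 epithelial markers on the array, among them KRT7, KRT19 and EPCAM, were well above background on all 8 arrays. The arrays of one vector differed most for shNontarget, where 34.9% of all tested genes lay over 1 log2 unit apart, against 1.76% for shControl, 1.56% for shBEX2-1 and 0.562% for shBEX2-2.

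Between BEX2-knockdown and control cells 5 of the 37 tested carriers were called, 3 higher and 2 lower. SLC25A22, a glutamate carrier, SLC25A10, the dicarboxylate carrier, and SLC25A40, a glutathione carrier, rose. SLC25A38, a glycine carrier needed for haem synthesis, and SLC25A26, the S-adenosylmethionine carrier, fell. Of all tested genes 12.9% were called, 6.68% higher and 6.26% lower, and of the carriers 13.5%, 8.11% higher and 5.41% lower, which is near that background. The median log2 fold change was 0.08 over the 37 carriers and 0.03 over all tested genes. The other 32 carriers did not pass the test, and 31 of the 37 lay within 0.5 log2 units of no difference. In bulk RNA such as this, fewer cells of a kind and less RNA per cell cannot be told apart.

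**Figure D1:**
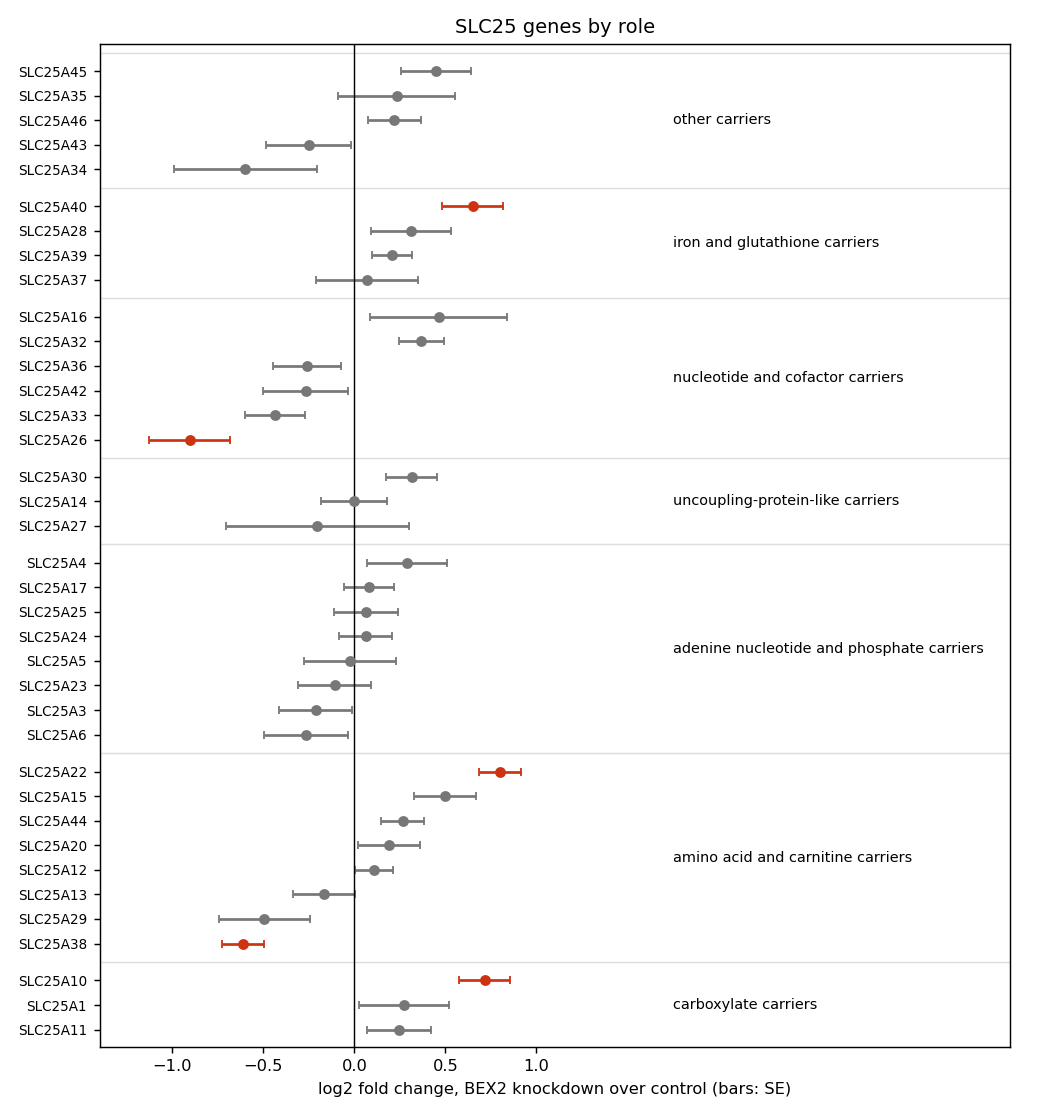
Log2 fold change of each tested SLC25 gene between 4 BEX2-knockdown and 4 control arrays (x axis, bars SE), in rows grouped by what the carriers transport. Red points are the 5 called genes. They spread over 4 of the 7 groups, from -0.90 for SLC25A26 to 0.80 for SLC25A22, and no adenine nucleotide or phosphate carrier was called.

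The upstream sequences of called carriers are shown because the study traced a promoter, and the called genes moved in opposite directions. RefSeq sequences (GRCh38.p14) were used for 34 of the 42 members, and of the called ones for SLC25A22, SLC25A40, SLC25A26 and SLC25A38. Each line below gives the 250 bases before the start on the gene's own strand, 5′ to 3′, with capitals for matches, on either strand, to the motifs listed after them. The windows are chr11:798282-798531 (minus strand) for SLC25A22, chr7:87876361-87876610 (minus strand) for SLC25A40, chr3:66220492-66220741 (plus strand) for SLC25A26 and chr3:39383120-39383369 (plus strand) for SLC25A38.
SLC25A22: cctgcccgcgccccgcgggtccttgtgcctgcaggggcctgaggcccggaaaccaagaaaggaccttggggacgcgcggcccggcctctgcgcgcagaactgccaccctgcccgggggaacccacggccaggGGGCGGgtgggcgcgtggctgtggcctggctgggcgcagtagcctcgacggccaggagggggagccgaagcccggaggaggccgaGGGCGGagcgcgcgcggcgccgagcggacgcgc
SLC25A40: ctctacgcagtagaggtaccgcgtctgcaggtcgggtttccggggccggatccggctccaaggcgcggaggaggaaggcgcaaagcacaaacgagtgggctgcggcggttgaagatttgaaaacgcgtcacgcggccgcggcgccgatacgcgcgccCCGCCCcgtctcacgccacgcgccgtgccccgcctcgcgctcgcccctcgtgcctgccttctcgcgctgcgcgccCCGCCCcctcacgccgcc
SLC25A26: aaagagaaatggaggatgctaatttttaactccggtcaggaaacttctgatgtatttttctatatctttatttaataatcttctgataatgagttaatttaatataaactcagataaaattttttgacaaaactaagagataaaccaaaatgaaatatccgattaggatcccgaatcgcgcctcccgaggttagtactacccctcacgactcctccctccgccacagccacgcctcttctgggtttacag
SLC25A38: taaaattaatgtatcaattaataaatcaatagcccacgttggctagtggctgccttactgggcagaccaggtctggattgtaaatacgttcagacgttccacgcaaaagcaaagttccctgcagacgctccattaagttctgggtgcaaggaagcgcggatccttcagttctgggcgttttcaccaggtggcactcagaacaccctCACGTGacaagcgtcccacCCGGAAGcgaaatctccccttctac

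The motifs were the GC box GGGCGG (SP1), the CCAAT box written CCAAT, the ETS core CCGGAAG, the E-box CACGTG that factors such as USF2 bind, the NRF1 core GCATGCG, and the E2F forms TTTCCCGC and TTTGGCGC. No motif is contained in another, and matches of different motifs can overlap. The GC box was in the windows of SLC25A22 and SLC25A40, which rose, with 2 matches each, and it had no match in those of SLC25A26 and SLC25A38, which fell. It was in 23 of the 34 member windows (67.6%) and in 42.3% of 27305 windows of all genes. The window of SLC25A38 held an E-box and an ETS core. An E-box was in 6 of the 34 member windows (17.6%) and in 6.49% of all windows, the ETS core in 7 (20.6%) and 8.82%, and the CCAAT box in 17 of the 34 and 33.0%. The NRF1 core was in 1 (2.94%) and 3.57%, the first E2F form in 2 (5.88%) and 1.42%, and the second in none and 0.553%. Member windows had a median GC content of 66.0% against 58.0% for all, and those printed above ran from 37.6% in SLC25A26 to 78.0% in SLC25A22. A match is a description of the letters and not a binding site.

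SLC25A22 carries glutamate with protons. Its level was 1.50 and 1.24 with shControl, 1.59 and 1.47 with shNontarget, 2.27 and 2.18 with shBEX2-1, and 2.22 and 2.33 with shBEX2-2. The groups did not overlap and the sublines lay close to each other. Between the groups the log2 fold change was 0.80 (SE 0.12, limma adjusted p = 0.0036), and the probe lies on chromosome 11 from 790496 to 790555 on the minus strand (hg19). SLC25A18, the other glutamate carrier, was well above background on 0 arrays, so that SLC25A22 was the one of this pair that could be measured.

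SLC25A10 exchanges malate and succinate for phosphate. Its level was -0.81 and -0.86 with shControl, -0.95 and -1.17 with shNontarget, -0.42 and -0.32 with shBEX2-1, and -0.14 and -0.05 with shBEX2-2. The groups did not overlap, and the highest arrays were those of shBEX2-2. This gave a log2 fold change of 0.72 (SE 0.14, limma adjusted p = 0.0114), from a probe on chromosome 17 from 79687525 to 79687584 on the plus strand (hg19).

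SLC25A40 is a close relative of SLC25A39, and both are known for glutathione import. The level of SLC25A40 was -2.45 and -2.21 with shControl, -2.31 and -1.94 with shNontarget, -1.77 and -1.75 with shBEX2-1, and -1.34 and -1.46 with shBEX2-2. The groups did not overlap, and the second shNontarget array was the nearest to the sublines. The log2 fold change was 0.65 (SE 0.17, limma adjusted p = 0.0342), from a probe on chromosome 7 from 87473085 to 87473144 on the minus strand (hg19). In RefSeq the starts of SLC25A40 and DBF4, the activating subunit of the replication kinase CDC7, lie 133 bases apart on opposite strands, and DBF4 rose, with a log2 fold change of 0.93 (SE 0.16, limma adjusted p = 0.00617). The same layout, within 1000 bases, was found for another 5 members. The neighbour was tested for 1 of them, SLC25A11 with RNF167, whose log2 fold changes of 0.25 and 0.33 were not called, and the neighbours of SLC25A6, SLC25A27, SLC25A28 and SLC25A42 were not tested. DBF4 and RNF167 were named after their values were seen.

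SLC25A38 brings glycine into mitochondria for the first step of haem synthesis. Its level was -0.09 and -0.07 with shControl, 0.04 and -0.16 with shNontarget, -0.76 and -0.53 with shBEX2-1, and -0.77 and -0.66 with shBEX2-2. All BEX2-knockdown arrays were below all control arrays. SLC25A38 had a log2 fold change of -0.61 (SE 0.12, limma adjusted p = 0.0104), from a probe on chromosome 3 from 39438140 to 39438199 on the plus strand (hg19).

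SLC25A26 exchanges S-adenosylmethionine, the methyl donor, for its product. Its level was -3.42 and -3.43 with shControl, -3.97 and -4.06 with shNontarget, -4.71 and -4.40 with shBEX2-1, and -4.78 and -4.62 with shBEX2-2. The groups did not overlap, but the shNontarget arrays lay between the shControl and the BEX2-knockdown arrays, and 1 of the 4 BEX2-knockdown arrays was not well above background. The log2 fold change was -0.90 (SE 0.22, limma adjusted p = 0.0296), from a probe on chromosome 3 from 66428767 to 66428826 on the plus strand (hg19). The size of this difference changed with normexp, an alternative background correction, which here added an offset of 50. Intensities of this probe were 16.9 to 77.7, and the share of the offset in the change was not tested. With normexp SLC25A26 had a log2 fold change of -0.12 (limma adjusted p = 0.545). Against shControl alone it was -1.20 (limma adjusted p = 0.00258) and against shNontarget alone -0.61 (limma adjusted p = 0.27).

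**Figure D2:**
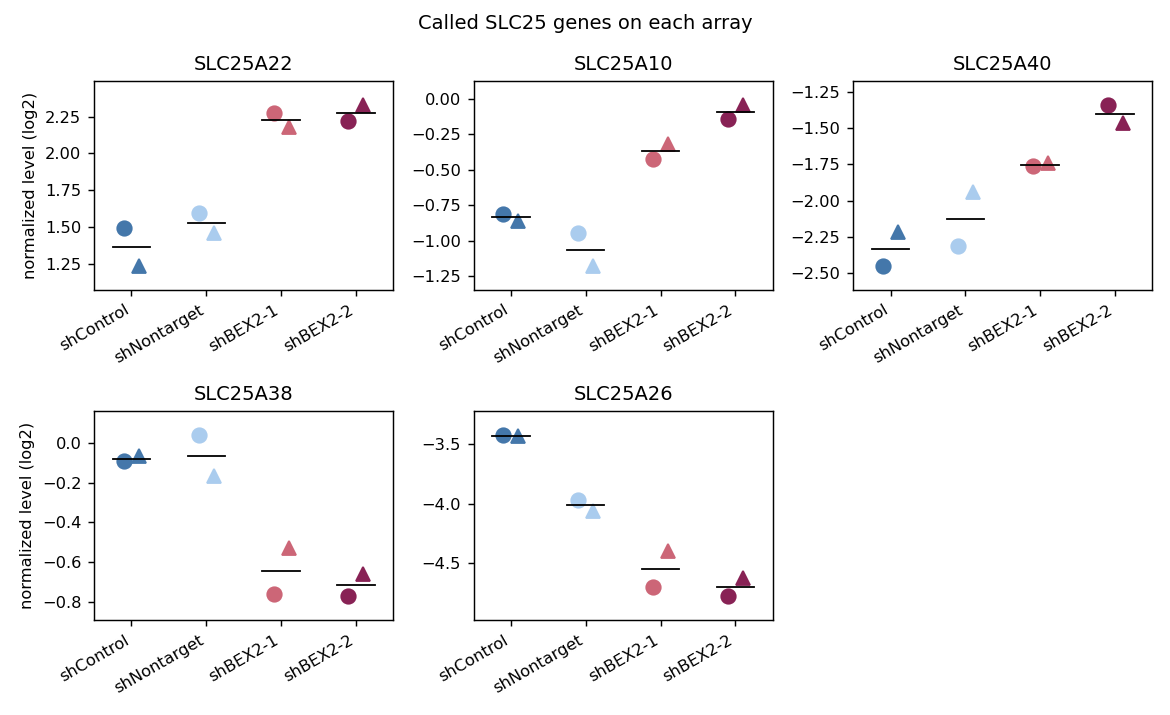
Normalized level (y axis, log2 relative to the array's 75th percentile) of the 5 called SLC25 genes on each array, by vector on the x axis. Circles are replicate 1, triangles replicate 2 and lines vector means. In each panel the 4 arrays on the right (BEX2 knockdown) lie wholly above or wholly below the 4 on the left.

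The number of calls depended on the control vector. With shControl as the only control 17 of 37 carriers were called, beside 6842 of all 20464 tested genes. With shNontarget as the only control no carrier was called, beside 340 of all genes. The limma adjusted p of the 5 called genes then ran from 0.0663 to 0.27. In that fit 5 carriers and 3805 of all genes had an unadjusted p under 0.05. Without replicate 1 of shNontarget 11 carriers and 4728 of all genes were called, and without its replicate 2 there were 8 and 4309. Leaving out any one of the other 6 arrays left 3 carriers, without SLC25A40 and SLC25A26, and 1243 to 1702 of all genes. Within the arrays of replicate 1 alone, or of replicate 2 alone, limma called no carrier, with 2 arrays against 2, and 0 and 211 of all genes. An unadjusted p under 0.05 was found for 7 and 6 carriers, and for 3773 and 4091 of all genes. The groups of the 5 called genes did not overlap, so that either set of arrays had to keep the direction of their fold changes. The log2 fold changes for replicate 1 and replicate 2 were 0.70 and 0.90 for SLC25A22, and 0.60 and 0.84 for SLC25A10. SLC25A40 had 0.83 and 0.47, SLC25A38 -0.74 and -0.48, and SLC25A26 -1.04 and -0.77.

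A further 6 carriers had all BEX2-knockdown arrays on one side of all control arrays but were not called: SLC25A30, SLC25A32, SLC25A39, SLC25A44 and SLC25A45 were above, and SLC25A33 was below. Together with the called genes these made 11 of 37 carriers (29.7%), and 22.2% of all tested genes had groups that did not overlap. The log2 fold changes of the 6 not called were 0.32, 0.37, 0.21, 0.27, 0.45 and -0.44, in that order, with limma adjusted p from 0.0886 for SLC25A32 to 0.265 for SLC25A39.

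Of the 10 adenine nucleotide and phosphate carriers 8 were tested and none was called. The median of their log2 fold changes was 0.02, with 4 above 0. SLC25A6, an ADP/ATP carrier expressed in most tissues, had levels of 6.90 and 6.76 with shControl, 7.01 and 6.10 with shNontarget, 6.70 and 6.54 with shBEX2-1, and 6.27 and 6.19 with shBEX2-2. SLC25A5, the ADP/ATP carrier of proliferating cells, had 5.65 and 5.54 with shControl, 6.39 and 5.06 with shNontarget, 5.55 and 5.68 with shBEX2-1, and 5.60 and 5.72 with shBEX2-2. SLC25A4, the form of heart and muscle, had 0.34 and 0.31 with shControl, 1.09 and -0.06 with shNontarget, 0.60 and 0.72 with shBEX2-1, and 0.70 and 0.82 with shBEX2-2. In all of them the first shNontarget array was the highest of the 8 and the second was the lowest, so that the control arrays enclosed the BEX2-knockdown arrays. Their log2 fold changes were -0.27 (SE 0.23), -0.02 (SE 0.25) and 0.29 (SE 0.22), with limma adjusted p of 0.506, 0.968 and 0.444. The files place the SLC25A5 probe on chromosome 6 while RefSeq has the gene on X, so that its signal may include a copy elsewhere. They place the SLC25A6 probe on the Y copy of a region that X and Y share, which is the same gene. The signals of these closely related genes may not be separated. A second SLC25A6 probe had -0.99 (limma adjusted p = 0.0688). The testis form SLC25A31 was well above background on 0 arrays and was not tested. SLC25A3, the phosphate carrier, had a log2 fold change of -0.21 (SE 0.20).

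The ATP-Mg/phosphate carriers, which load adenine nucleotides under control of calcium, were close to no difference. SLC25A24 had levels of 2.48 and 2.57 with shControl, 2.56 and 2.17 with shNontarget, 2.25 and 2.47 with shBEX2-1, and 2.64 and 2.67 with shBEX2-2. SLC25A25 had levels of 0.50 and 0.66 with shControl, 0.55 and 1.06 with shNontarget, 0.54 and 0.52 with shBEX2-1, and 0.96 and 0.99 with shBEX2-2. With both genes the shBEX2-2 arrays were above the shBEX2-1 arrays. The log2 differences of shBEX2-1 from shBEX2-2 were -0.29 (SE 0.18) and -0.45 (SE 0.19), and neither was called. SLC25A23 had levels of 1.55 and 1.44 with shControl, 1.48 and 0.64 with shNontarget, 1.23 and 1.12 with shBEX2-1, and 1.24 and 1.08 with shBEX2-2, with the second shNontarget array apart from all others. The files place that probe on chromosome 3 while RefSeq has SLC25A23 on 19. A second, dimmer SLC25A23 probe had a log2 fold change of -0.29 (SE 0.16), not called, and there the second shNontarget array was the highest array. SLC25A41 was well above background on 1 array and was not tested. The peroxisomal carrier SLC25A17 had 0.08 (SE 0.14).

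Of the nucleotide and cofactor carriers 6 are described and all of these were tested, with SLC25A26 called lower. SLC25A33, a pyrimidine nucleotide carrier, had levels of 0.08 and -0.06 with shControl, 0.65 and 0.07 with shNontarget, -0.23 and -0.33 with shBEX2-1, and -0.27 and -0.18 with shBEX2-2. SLC25A36, its close relative, had 2.42 and 2.47 with shControl, 2.28 and 3.14 with shNontarget, 2.37 and 2.24 with shBEX2-1, and 2.35 and 2.31 with shBEX2-2. SLC25A33 was lower on every BEX2-knockdown array, while for SLC25A36 the first shNontarget array lay among the BEX2-knockdown arrays. Their log2 fold changes were -0.44 (SE 0.16, limma adjusted p = 0.12) and -0.26 (SE 0.19, limma adjusted p = 0.413). SLC25A32, known for folate and FAD, had 0.37 (SE 0.12), SLC25A16 had 0.46 (SE 0.37) and SLC25A42, a coenzyme A carrier, had -0.27 (SE 0.23). Second, dimmer probes had -0.51 (SE 0.20) for SLC25A36 and 0.20 (SE 0.27) for SLC25A16, and neither was called.

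Of 4 carboxylate carriers 3 were tested, and the fold changes of all were above 0. SLC25A1, which exports citrate for fatty acid synthesis, had levels of 1.95 and 1.76 with shControl, 2.18 and 0.90 with shNontarget, 1.87 and 2.03 with shBEX2-1, and 2.00 and 1.99 with shBEX2-2. The second shNontarget array was the lowest and the first the highest, with the BEX2-knockdown arrays between them. Its log2 fold change was 0.27 (SE 0.25, limma adjusted p = 0.531), and SLC25A11, the oxoglutarate carrier of the malate-aspartate shuttle, had 0.25 (SE 0.18). SLC25A21 was well above background on 1 array and was not tested.

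Of 10 amino acid and carnitine carriers 8 were tested, with SLC25A22 called higher and SLC25A38 lower. SLC25A12 and SLC25A13 are the calcium-stimulated aspartate/glutamate carriers of the malate-aspartate shuttle. SLC25A12 had levels of 1.02 and 1.04 with shControl, 1.17 and 1.10 with shNontarget, 1.14 and 1.14 with shBEX2-1, and 1.26 and 1.24 with shBEX2-2. SLC25A13 had levels of -0.07 and -0.03 with shControl, -0.21 and -0.18 with shNontarget, -0.63 and -0.52 with shBEX2-1, and -0.05 and 0.04 with shBEX2-2. SLC25A12 had its lowest values with shControl and its highest with shBEX2-2, within a narrow range. SLC25A13 was lower on the shBEX2-1 arrays than on all others, and its log2 difference between shBEX2-1 and shBEX2-2 was -0.57 (SE 0.13), with a limma adjusted p of 0.253. SLC25A15, the ornithine carrier of the urea cycle, had -2.60 and -2.74 with shControl, -2.15 and -2.76 with shNontarget, -1.97 and -2.21 with shBEX2-1, and -2.04 and -2.04 with shBEX2-2. SLC25A29, which carries basic amino acids, had 3.36 and 3.45 with shControl, 2.40 and 3.68 with shNontarget, 2.72 and 2.75 with shBEX2-1, and 2.73 and 2.72 with shBEX2-2. SLC25A15 lay above 3 of the 4 control arrays on every BEX2-knockdown array (log2 fold change 0.50, SE 0.17, limma adjusted p = 0.0907). For SLC25A29 the first shNontarget array was the lowest of the 8 and the other control arrays were the highest (log2 fold change -0.49, SE 0.25, limma adjusted p = 0.236). SLC25A2, the other ornithine carrier, was well above background on 0 arrays and was not tested. SLC25A20, which exchanges carnitine for acylcarnitine, had 0.19 (SE 0.17) and SLC25A44, known for branched-chain amino acids, had 0.27 (SE 0.12).

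All 4 iron and glutathione carriers were tested, and SLC25A40 was the one called. SLC25A39 had levels of 3.21 and 3.11 with shControl, 3.30 and 3.28 with shNontarget, 3.37 and 3.40 with shBEX2-1, and 3.44 and 3.52 with shBEX2-2. It was higher on each BEX2-knockdown array, by a smaller amount than its relative SLC25A40 (log2 fold change 0.21, SE 0.11, limma adjusted p = 0.265). The mitoferrins SLC25A37 and SLC25A28 import iron, the first mainly in red cell precursors. SLC25A37 had levels of 2.86 and 2.85 with shControl, 2.51 and 3.86 with shNontarget, 3.38 and 3.28 with shBEX2-1, and 2.89 and 2.80 with shBEX2-2. SLC25A28 had levels of -1.11 and -0.90 with shControl, -1.02 and -0.16 with shNontarget, -0.47 and -0.23 with shBEX2-1, and -0.75 and -0.50 with shBEX2-2. The second shNontarget array was the highest for both. Their log2 fold changes were 0.07 (SE 0.28) and 0.31 (SE 0.22), and neither was called. A second, dimmer SLC25A37 probe had 0.42 (SE 0.30) and was not called.

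The uncoupling-protein-like carriers and those of other or little-known cargo had no call among 3 and 5 tested. SLC25A14 had levels of 1.79 and 1.73 with shControl, 1.57 and 2.40 with shNontarget, 1.82 and 1.77 with shBEX2-1, and 1.95 and 1.93 with shBEX2-2, and its log2 fold change was 0.00 (SE 0.18). SLC25A46, which sits in the outer membrane and takes part in mitochondrial shape, had 0.77 and 0.75 with shControl, 1.23 and 0.64 with shNontarget, 1.00 and 1.13 with shBEX2-1, and 1.05 and 1.08 with shBEX2-2 on its brighter probe and a log2 fold change of 0.22 (SE 0.15, limma adjusted p = 0.379). Its second, dimmer probe had a log2 fold change of 0.60 (SE 0.14, limma adjusted p = 0.0213 over 25071 probes), with the arrays of the groups apart, so that the dimmer probe was called and the brighter was not. The log2 fold change of the 6 remaining genes ran from -0.60 in SLC25A34 to 0.45 in SLC25A45. Among them SLC25A27 had -0.20 (SE 0.50) on its brighter probe and 0.24 (SE 0.48) on a dimmer one.

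Each BEX2-knockdown subline was then set against both control vectors in a model of the 4 vectors. With shBEX2-1 1 carrier was called, SLC25A22, which was higher, where 7.00% of all tested genes were called, 3.38% higher and 3.62% lower. With shBEX2-2 all 5 were called, 3 higher and 2 lower, where 9.67% were, 4.86% higher and 4.81% lower. These comparisons share the control arrays. SLC25A22 had a log2 fold change of 0.78 (SE 0.13, limma adjusted p = 0.0246) with shBEX2-1 and 0.83 (SE 0.13, limma adjusted p = 0.0153) with shBEX2-2, and SLC25A10 had 0.58 (SE 0.13, limma adjusted p = 0.0503) and 0.85 (SE 0.13, limma adjusted p = 0.0128). SLC25A40 had 0.47 (SE 0.17, limma adjusted p = 0.159) and 0.83 (SE 0.17, limma adjusted p = 0.0311), SLC25A38 had -0.57 (SE 0.13, limma adjusted p = 0.0579) and -0.65 (SE 0.13, limma adjusted p = 0.0339), and SLC25A26 had -0.83 (SE 0.20, limma adjusted p = 0.0664) and -0.98 (SE 0.20, limma adjusted p = 0.0343). All 5 were thus further from the controls with shBEX2-2, and the difference between the sublines was called for none of them. With the replicate number as a block SLC25A26 and SLC25A38 were not called with shBEX2-2 (limma adjusted p = 0.0585 and 0.0599). Of all tested genes 2 (0.00977%) differed between the sublines by the same test, and no carrier, though SLC25A13 and SLC25A17 had an unadjusted p under 0.05. Leaving out either shNontarget array raised the number of called carriers with each subline and between the sublines. The share over all tested genes was not counted for these fits, so that the rise cannot be read as one of the carriers. A vector left with 1 array adds nothing to the spread of this model. Without any one of the other 6 arrays none was called with shBEX2-1, while with shBEX2-2 there was 1 without either shBEX2-1 array and 0 without either shControl array or either of its own.

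**Figure D3:**
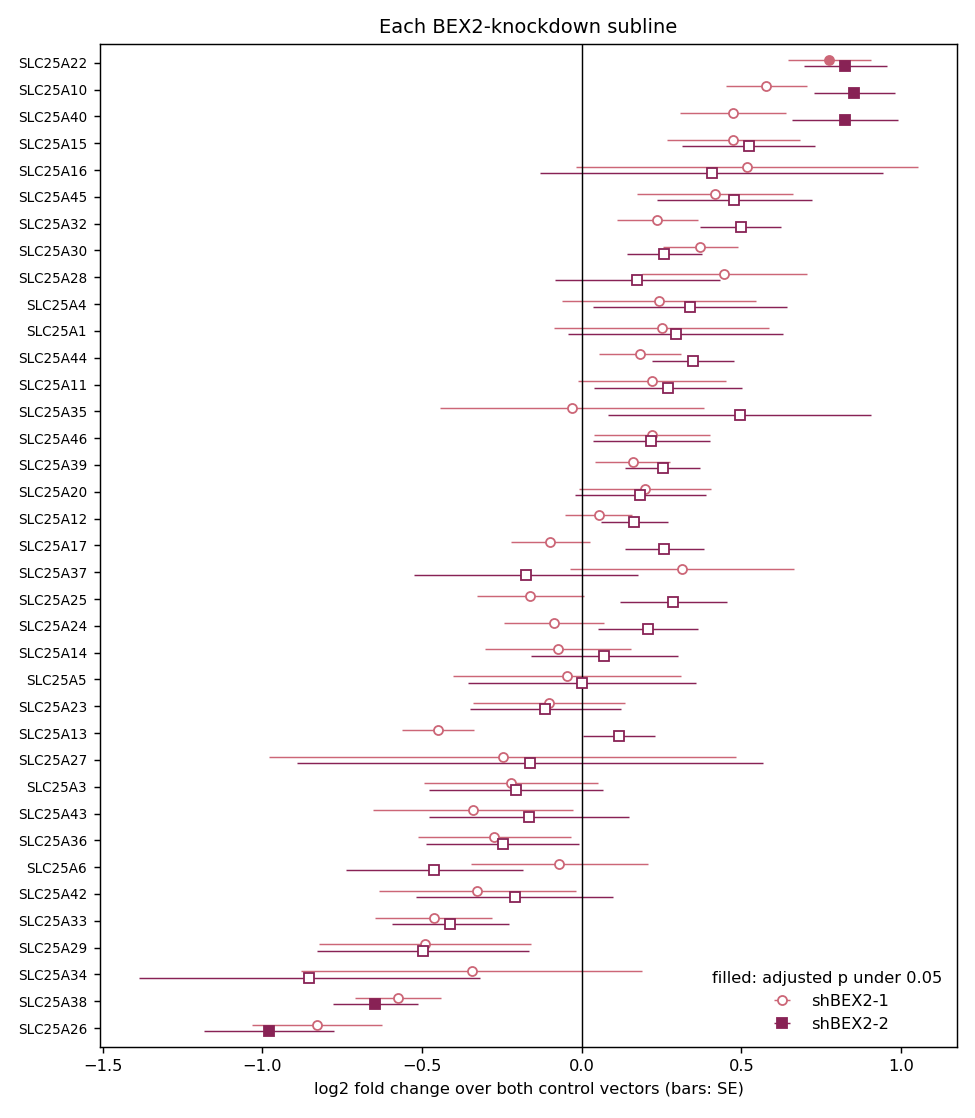
Log2 fold change (x axis, bars SE) of the 37 tested SLC25 genes for shBEX2-1 (circles) and shBEX2-2 (squares), each against the same 4 control arrays. Filled symbols were called. They are 1 circle and 5 squares, at the upper and lower ends of the rows.

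The control vectors were also compared with each other. Between shNontarget and shControl limma called no gene (0% of all tested) and thus no carrier, with 1564 genes and 2 carriers (SLC25A26 and SLC25A30) at an unadjusted p under 0.05. The arrays of shNontarget themselves were far apart: 10 of the 37 carriers differed by over 1 log2 unit between them and 23 by over 0.5, against 1 by over 0.5 for shControl, 1 for shBEX2-1 and 0 for shBEX2-2. The largest gap among the carriers was that of SLC25A27, a brain uncoupling protein, which had levels of -2.44 and -2.34 with shControl, -3.62 and -0.70 with shNontarget, -2.45 and -2.60 with shBEX2-1, and -2.51 and -2.36 with shBEX2-2. The shNontarget arrays were the lowest and the highest there, and they enclosed both shControl arrays. They were the lowest and the highest of the 4 control arrays for 21 of the 37 carriers. The same array was not always the higher one, since replicate 2 was higher for SLC25A27, SLC25A16, SLC25A34, SLC25A35 and SLC25A37 and replicate 1 for SLC25A1, SLC25A5 and SLC25A43. The 5 called genes were not among the 10 with gaps over 1.

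**Figure D4:**
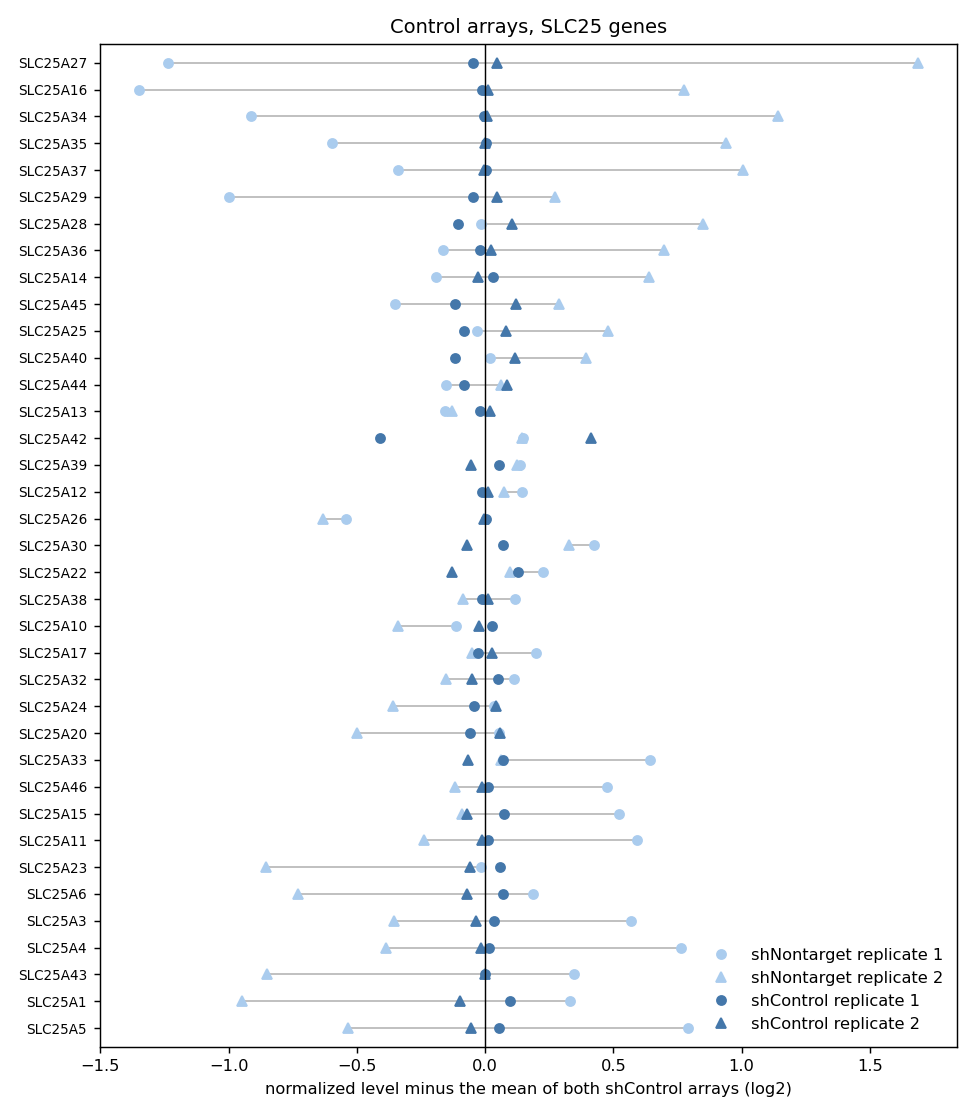
Normalized level of the 37 tested SLC25 genes on the 4 control arrays, minus the mean of both shControl arrays (x axis, log2). Light symbols are shNontarget and dark symbols shControl, circles replicate 1 and triangles replicate 2, and rows are ordered by the gap between the shNontarget arrays, up to 2.92 for SLC25A27.

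Genes that work with the carriers were read from hand-made lists, which were chosen with earlier results of these data known. Of 16 genes that import carriers into the inner membrane 1 was called higher and 1 lower, where 12.9% of all tested genes were called. TIMM8A, a small chaperone between the membranes, rose on the log2 scale by 0.90 (SE 0.21, limma adjusted p = 0.0256), and FXC1, now named TIMM10B and part of the complex that inserts carriers, fell by 0.60 on the log2 scale (SE 0.13, limma adjusted p = 0.0171). The median of the 16 was 0.24. Set apart by subline, TIMM8A was called in neither (limma adjusted p = 0.159 with shBEX2-1 and 0.0738 with shBEX2-2) and FXC1 with shBEX2-2 alone (0.103 and 0.0273). Among 7 tested carriers outside the naming rule UCP2, an uncoupling protein, rose on the log2 scale by 1.02 (SE 0.28, limma adjusted p = 0.0422), and the median was 0.27. By subline, 0 of these 7 were called with shBEX2-1 and 1 with shBEX2-2. None of 5 genes for the outer membrane pores and the pyruvate carrier was called (median 0.38).

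Of 14 shuttle enzymes of malate, aspartate, citrate and glycerol phosphate 1 was called (median of the list 0.22). It was GPD2, the mitochondrial glycerol phosphate dehydrogenase, which rose on the log2 scale by 0.65 (SE 0.13, limma adjusted p = 0.0107). Of 10 carnitine shuttle enzymes 1 was called, CROT, a peroxisomal carnitine transferase, which rose on the log2 scale by 0.87 (SE 0.24, limma adjusted p = 0.0465, median -0.01). By subline, 0 of these 10 were called with shBEX2-1 and 1 with shBEX2-2. Of 21 genes of ATP synthase and high-energy phosphate 1 was called, CKMT1A, a mitochondrial creatine kinase with a near-identical copy, which rose on the log2 scale by 1.52 (SE 0.14, limma adjusted p = 0.000746, median 0.32). In this list and in that of the shuttle enzymes with GPD2 1 gene was called with each subline. None of 14 genes of haem and iron-sulfur synthesis (median 0.01) and none of 10 of ornithine and polyamines (median 0.29) was called.

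Of 8 mitochondrial folate and glycine enzymes 3 were called, all lower, where 6.26% of all tested genes were called lower, and 1 of the 8 fold changes was above 0 (median -0.64). The list was chosen with earlier results of these data known, so that this share is a description and not a test. MTHFD1L, which releases formate, fell by 1.33 on the log2 scale (SE 0.12, limma adjusted p = 0.000716). ALDH1L2, which makes NADPH from folate, fell by 1.46 (SE 0.37, limma adjusted p = 0.0313), and MTHFD2, an earlier step of the same path, fell by 0.84 (SE 0.21, limma adjusted p = 0.0333). With shBEX2-1 1 of the 8 was called, MTHFD1L, and with shBEX2-2 2 were, MTHFD1L and ALDH1L2. The folate carrier SLC25A32 had 0.37, not called, and the glycine carrier SLC25A38 had -0.61, beside them.

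**Figure D5:**
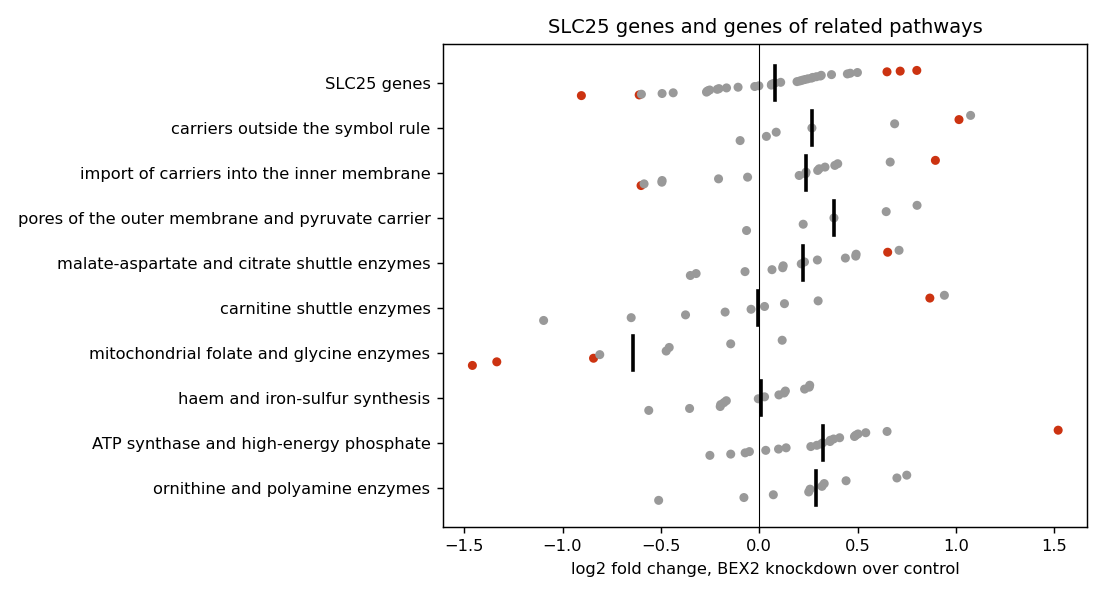
Log2 fold change between BEX2-knockdown and control arrays (x axis) of the tested SLC25 genes and of the lists of related genes, 1 point a gene, red where called, with a black line at each median. The lists were chosen with earlier results of these data known. The folate and glycine enzymes have a median of -0.64, the others between -0.01 and 0.38, and the SLC25 genes 0.08.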

How the data were processed

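RNA of HuCCT1 cells with 4 vectors, 2 arrays each, was labelled with one dye and hybridised to Agilent arrays by the authors. The deposited processed intensity of each spot comes from Agilent Feature Extraction 10.7.3.1 (submitters' processing notes), which subtracts background and detrends within an array, with low values set to a surrogate (19.9% to 25.9% of spots). Arrays are not scaled to each other. A second deposited table, of all arrays, has the same intensities to within 0.497%.

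Control spots and non-uniform spots (3 to 15 per array) were left out. The log2 of the intensity was taken, minus each array's 75th percentile. Spots of a probe were averaged, and the brightest probe by the mean of 8 arrays stood for a gene. Probes well above background on at least 4 arrays were kept. Groups come from the labels. The comparison of 4 with 4 arrays used limma 3.58.1 (lmFit, eBayes with trend) in R 4.3.3, with Benjamini-Hochberg adjustment over 20464 genes. A second model with the 4 vectors gave sublines and control vectors. The scripts were tested on simulated data. Sequences were read in Python 3.11.15 (pandas 2.3.3, numpy 2.4.6) and figures in matplotlib 3.10.9.

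The members and gene lists were chosen with earlier results of these data known. Arrays were named in full for called members, for the brightest member of each role and for close paralogs, and the called genes with the 3 largest changes for other lists. The study's rank product, which resamples genes, was not repeated. Gene names are those of the array design. All 42 symbols are in RefSeq's gene table (GRCh38.p14), and the accessions of 39 have the same symbol there. Replicate numbers were taken as pairing the arrays, since the deposited files give each number a day of its own. The replicate differences of 2 vectors correlated across genes with r of 0.259, 0.126, 0.113, -0.0628, 0.207 and 0.228. Alternatives covered normalization, background, the dim-probe filter, the replicate block, the random vector block, either control vector alone, arrays left out in turn, the methods' t-test, and, chosen after seeing the data, the arrays of each replicate number alone. The number of arrays limits the precision. No genome or protein table was used here, so exon or UTR positions and protein sequences are not given. A member of the family and a promoter window are not reported here and stay out of the counts of carriers and of member windows.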

Additional observations from a re-analysis of the deposited data

Results flagged for a closer look

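Among 74 groups of 4 arrays, 1 for each tested carrier in the control and in the BEX2-knockdown group, 1 had an array far from the others, where chance flags about 1 in 20. It was SLC25A23 in the control group. The second shNontarget array had a level of 0.64, against 1.44 to 1.55 on the other 3, and its gap was 0.871 of the whole range. The files place that probe on chromosome 3 while RefSeq has the gene on 19. On a second, dimmer SLC25A23 probe the same array was the highest control array, at -2.13 against -2.58 to -2.46. The ratio takes 1 gap at a time, so that 2 arrays far out on opposite sides can mask each other. The shNontarget arrays were the lowest and the highest control array for 21 of the 37 carriers. Among these SLC25A27, at -3.62 and -0.70 on them, had a ratio of 0.56 and was not flagged.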

How the results depend on the processing

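With the main settings 5 carriers and 2648 genes were called between BEX2-knockdown and control cells. The 5 genes kept their direction under every alternative in which they were fitted. Fits of fewer arrays, or of another model on the same levels, had to keep it, since the groups of these genes did not overlap. SLC25A26 had a log2 fold change of -0.12 with normexp and its offset of 50, against -0.90 with the main settings. SLC25A22, SLC25A10 and SLC25A38 were called in 21 of 24, SLC25A40 in 14 of 24 and SLC25A26 in 12 of 23. Of the 32 carriers not called, 18 changed sign and 15 were called in at least 1 alternative. These counts of alternatives include the methods' t-test without adjustment, where a p under 0.05 stood for a call. SLC25A33, SLC25A44 and SLC25A45 were called in that alternative alone. Normexp gave 4 carriers, 3 higher and 1 lower, and 2814 genes, 1781 higher and 1033 lower, against 1367 and 1281 with the main settings. With shControl as the only control 17 carriers and 6842 genes were called, and with shNontarget as the only control 0 and 340. The arrays of replicate 1 alone gave 0 and 0, and those of replicate 2 alone 0 and 211. The methods' t-test gave 12 and 5419 unadjusted, and 5 carriers and 2170 genes after Benjamini-Hochberg. Leaving out 1 array in turn gave 3 to 11 carriers and 1243 to 4728 genes, 0 to 22 carriers with shBEX2-1, 0 to 25 with shBEX2-2, 0 to 5 between the sublines and 0 to 21 between the control vectors. For sublines and control vectors the upper ends came from fits without 1 shNontarget array, which left that vector with 1 array. Such a vector adds nothing to the spread. For these comparisons the share over all tested genes was counted with the main settings alone. Their counts under alternatives, here and below, thus cannot be read as a result about the carriers. Without a filter on dim probes 3 carriers were called, beside 2104 of 34809 genes. SLC25A40 and SLC25A26 were not among these carriers, and 3 carriers were called with shBEX2-2. With shNontarget as the only control 0 carriers were called with shBEX2-1 and 2 with shBEX2-2. With shBEX2-1 normexp gave 3, and the stricter filter, the mean of probes and eBayes without a trend gave 2 each, where the main settings gave 1. The replicate block left 5 carriers (2456 genes) and 3 with shBEX2-2, where SLC25A38 and SLC25A26 were lost, and it changed no other call. Why these counts differ was not tested, apart from what fewer arrays imply. Dim probes limit SLC25A26, which was well above background on 7 of 8 arrays, and the 5 carriers not tested.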
